A study of Mus musculus with 6 samples.

Results

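Interferon-stimulated genes are the genes that cells switch on when interferons reach them. A list of 40 of these genes was followed here in sorted DN3 thymocytes of the mouse. The members were matched by gene symbol, with no threshold on a measured value, though the list was drawn up with earlier results of these data known. All 40 were among the 24015 symbols counted. Of these, 39 had enough reads to be tested, among 12939 tested genes in all. The remaining member, Oas1g, had 0 to 7 reads per library.

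DN3 thymocytes are early T cell precursors in the thymus that carry neither CD4 nor CD8 and, in this sort, had low CD44 and high CD25. RNA sequencing gave 6 libraries, 2 in each of 3 groups. Wild type mice served as control. The p45-deficient libraries came from p45-/- mice, which lack the long isoforms of Tcf1, a DNA-binding factor of the T lineage encoded by Tcf7. The Tcf1-deficient libraries came from Lck-cre+ Tcf1 fl/fl mice, in which a Cre recombinase under Lck control deletes the floxed gene in cells where it is active. The labels name no treatment, and the sources used here give neither the strain nor the age of the mice. A difference of strain or age between groups therefore cannot be told apart from one of genotype. Nothing in the labels ties each library to its own animal. The p-values therefore reflect how far these libraries differ from each other, and part of that may be technical.

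Type I interferons bind a receptor made of IFNAR1 and IFNAR2. The kinases JAK1 and TYK2 then phosphorylate STAT2, which joins IRF9 in a complex that binds the interferon-stimulated response element in promoters. Interferon-gamma acts through another receptor, and its targets carry gamma-activated sites. The induced proteins sense foreign RNA, block translation, degrade RNA, tag proteins with ISG15 or attack vacuoles that hold parasites, and USP18 shuts the pathway down again. In the thymus, maturing single-positive cells are known to carry a trace of such signalling at steady state.

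Promoter stretches of 6 members are printed as examples of the response element in members of several roles, chosen after their values were seen, and those of Oas1a and Oas1g because the sequence is nearly shared. They come from RefSeq windows of GRCm38.p6, another build than the mm9 of the counts, and 30 of the 40 symbols had a window. Each stretch has 60 bases, lies before the annotated start and reads 5′ to 3′ on the gene's strand. Capitals mark matches to the core of the element, which is GAAA, any 2 bases and GAAA again, or to the same core on the other strand, TTTC, any 2 bases and TTTC.
Isg15: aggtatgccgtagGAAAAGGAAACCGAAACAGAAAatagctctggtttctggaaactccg
Gbp3: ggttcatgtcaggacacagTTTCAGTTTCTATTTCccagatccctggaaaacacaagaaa
Ifit1: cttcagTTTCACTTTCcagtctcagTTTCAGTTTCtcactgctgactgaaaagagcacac
Ifit3: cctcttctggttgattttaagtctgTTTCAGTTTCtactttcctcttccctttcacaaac
Rsad2: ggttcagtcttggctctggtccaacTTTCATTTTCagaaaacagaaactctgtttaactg
Igtp: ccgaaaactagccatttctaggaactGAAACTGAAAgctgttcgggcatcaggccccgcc
Oas1a: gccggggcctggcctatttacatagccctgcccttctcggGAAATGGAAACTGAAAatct
Oas1g: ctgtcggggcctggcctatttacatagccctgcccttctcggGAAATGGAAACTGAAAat
In GRCm38.p6 the Isg15 stretch lies at chr4:156200850-156200909 (minus strand), that of Gbp3 at chr3:142559980-142560039 (plus), and that of Ifit1 at chr19:34640779-34640838 (plus). That of Ifit3 lies at chr19:34583382-34583441 (plus), that of Rsad2 at chr12:26456538-26456597 (minus), and that of Igtp at chr11:58199496-58199555 (plus). The stretch of Oas1a lies at chr5:120907526-120907585 and that of Oas1g at chr5:120887614-120887673, both on the minus strand.

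The 250 bases before each start were searched for 3 motifs on both strands. The core of the response element stood in 14 of 36 windows of the members (38.9%) and in 2.98% of all 32851 windows, and the 14 windows belonged to 14 genes. The gamma-activated site TTCNNNGAA stood in 6 member windows (16.7%), against 7.02% of all windows, and shared bases with the core in Bst2. The TCF/LEF core CTTTGAT, a form of the motif Tcf1 binds, was in 0 member windows, against 3.21% of all windows. Such matches describe letters and are not binding sites.

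Library totals ran from 19640524 to 28107031 reads, so that 3 reads in a library equalled 0.110 to 0.145 CPM (the usual depth-normalised read count, with library sizes scaled by TMM). Tcf7 stood at 1810 to 2414 CPM in the control and p45-deficient libraries and at 979 and 976 CPM in the Tcf1-deficient libraries. A count per gene does not separate isoforms, so Tcf7 does not check the p45-deficient label. Nor does it resolve the deleted part, so the remaining reads do not show how complete the deletion was in the Tcf1-deficient libraries. Genes of the DN3 stage were abundant in each library, with Il2ra, which encodes CD25, between 923 and 1991 CPM. Tcf1-deficient replicate 1 stood apart from replicate 2, and results that rest on it are given with and without it.

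Per kilobase of exon, the mean control level of the members ran from 0.0290 CPM per kilobase for Oas1g to 168 CPM per kilobase for Bst2. Bst2 encodes tetherin, which holds budding viruses at the cell surface. The next levels on that scale were those of Ifi47, a GTPase of the p47 family (48.3), and Dtx3l, a ubiquitin ligase that partners PARP9 (33.2). In control cells 16 members exceeded 10 CPM per kilobase and 4 lay under 1, namely Mx2, Mx1, Ifit3 and Oas1g. Exon lengths were taken from GENCODE for GRCm38, so the scale is approximate for counts made on mm9.

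The level of the list differed most between the 2 Tcf1-deficient libraries. Of the 39 tested members, 36 had their highest level of all 6 libraries in Tcf1-deficient replicate 1, a place it held for 23.3% of tested genes. The exceptions were Bst2, Ifitm3 and Eif2ak2. In replicate 1, 26 members lay at least 2-fold above replicate 2, as did 9.6% of tested genes, and no member lay 2-fold below it (4.07% of tested genes). The ratio of replicate 1 to replicate 2 had a median of 2.49 over the members, with a range of 0.912 to 20.1, and of 1 over all tested genes. Replicate 2 lay at 1.03 times the control mean in the median member, within a range of 0.496 to 1.99, and 31 members were within 1.5-fold of that mean (85% of tested genes). Replicate 1 lay at least 2-fold above the control mean for 29 members (8.32% of tested genes) and replicate 2 for none (2.49%).

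**Figure D1:**
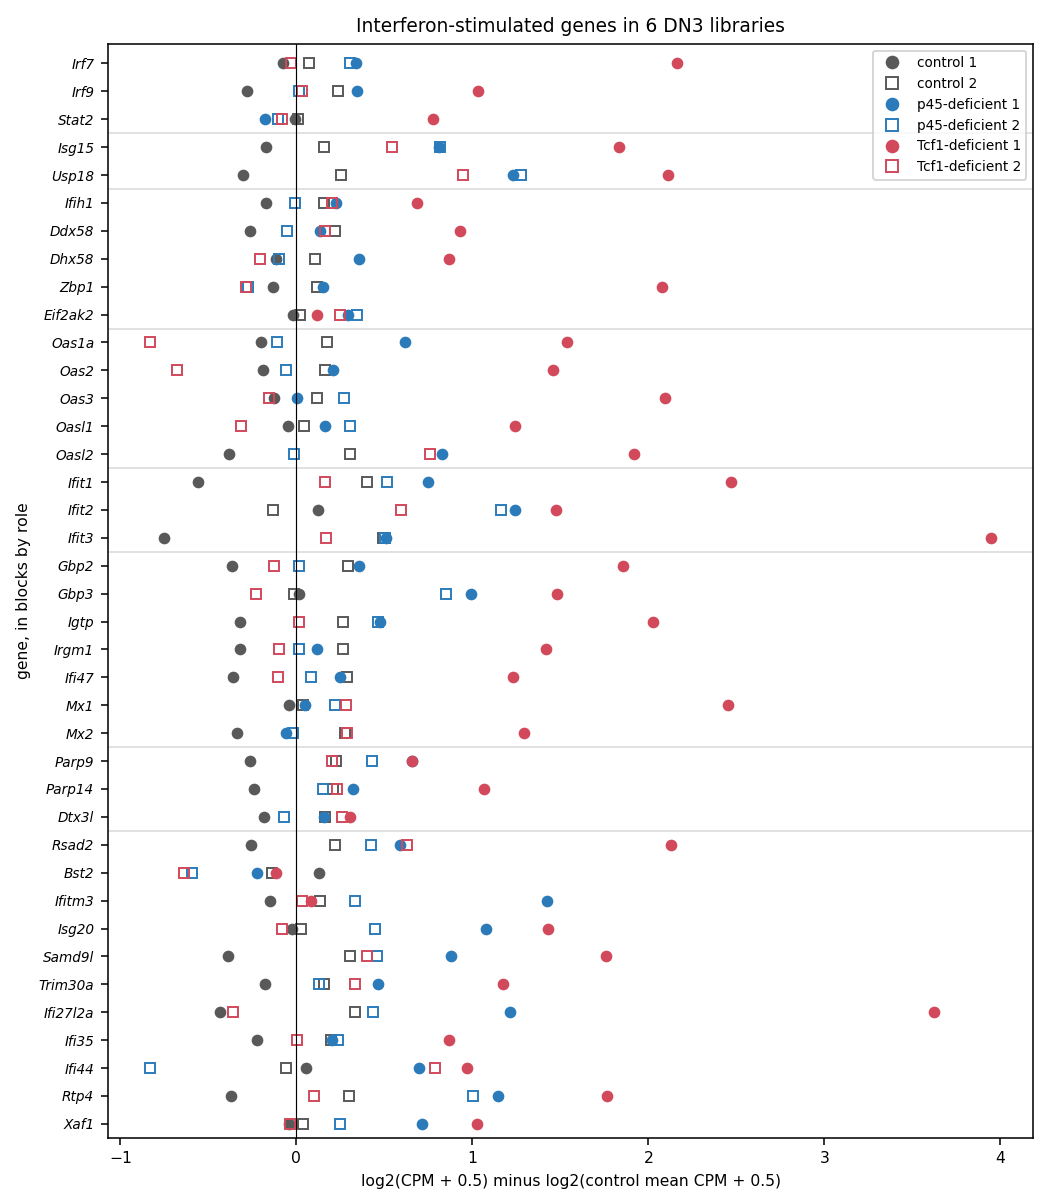
Level of each of the 39 tested interferon-stimulated genes (vertical axis, in blocks by role) in each of the 6 libraries, as log2(CPM + 0.5) minus the log2 of the control mean + 0.5 (horizontal axis). Tcf1-deficient replicate 1 (filled red circles) is the highest library for 36 genes, while Tcf1-deficient replicate 2 (open red squares) lies near the controls.

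The transcription factors of the pathway showed this split. Irf7, the factor that amplifies interferon production, had 15.1 and 16.8 CPM in the control libraries, replicates 1 and 2. Its p45-deficient levels were 20.3 and 19.8 CPM, and its Tcf1-deficient levels 73.3 and 15.6 CPM. Irf9, the DNA-binding part of the complex with STAT2, stood at 39.6 and 56.9 CPM, 61.3 and 48.8 CPM, and 99.2 and 49.4 CPM in the same order. Stat2, its partner, stood at 54.8 and 55.5 CPM, 48.6 and 51.4 CPM, and 95.0 and 52.2 CPM. For each of these factors 1 Tcf1-deficient library lay above the other 5 libraries and the other lay between or below libraries of the other groups.

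The IFIT proteins bind viral RNA and block its translation. Ifit3 stood at 0.290 and 1.37 CPM in control, 1.40 and 1.39 CPM in p45-deficient, and 20.05 and 0.999 CPM in Tcf1-deficient libraries, the widest ratio between replicates in the list. Ifit1 stood at 3.48 and 7.25 CPM, 9.34 and 7.90 CPM, and 32.0 and 6.08 CPM. For both genes replicate 2 of the Tcf1-deficient group lay between the controls. Reads of Ifit3 may not be separable from those of its close copy I830012O16Rik (also called Ifit3b), which had 4.84 CPM in Tcf1-deficient replicate 1 and 0.0483 to 0.267 CPM in the other 5 libraries.

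Ifi27l2a, a small interferon-induced membrane protein gene, stood at 3.19 and 5.76 CPM in control. It had 11.0 and 6.22 CPM in p45-deficient cells, and 60.7 and 3.37 CPM in Tcf1-deficient cells. Zbp1, a sensor of Z-form nucleic acids that can trigger cell death, stood at 23.4 and 28.0 CPM, 28.6 and 21.2 CPM, and 110.3 and 21.0 CPM. Mx1, an antiviral GTPase gene that is defective in many laboratory strains, stood at 1.60 and 1.72 CPM, 1.73 and 2.01 CPM, and 11.3 and 2.12 CPM. Each of these genes had a single high library, Tcf1-deficient replicate 1.

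Among the 5 tested genes of the OAS family, whose enzymes make the signal that activates RNase L, replicate 1 exceeded replicate 2 by 2.27-fold to 6.42-fold. Oas1a was the widest of them, at 10.7 and 1.66 CPM, against 2.85 and 3.86 CPM in control and 5.40 and 3.06 CPM in p45-deficient libraries. It shares near-identical sequence with Oas1g, so its reads may be split between copies. All 7 GTPase genes lay at least 2-fold higher in replicate 1 than in replicate 2. Igtp, which acts on parasite vacuoles, stood at 187 and 46.1 CPM, against 36.4 and 54.7 CPM in control and 63.6 and 62.9 CPM in p45-deficient libraries. Ifi47 stood at 213 and 84.5 CPM, against 70.5 and 111 CPM in control and 108 and 96.2 CPM in p45-deficient libraries.

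The split was smaller in the PARP group, which adds ADP-ribose to proteins. Parp14 stood at 202 and 113 CPM in Tcf1-deficient libraries, 81.4 and 111 CPM in control and 121 and 107 CPM in p45-deficient libraries. Parp9 stood at 98.6 and 71.7 CPM, 51.8 and 72.9 CPM, and 98.4 and 84.2 CPM in the same order. Dtx3l stood at 235 and 228 CPM, 167 and 213 CPM, and 212 and 181 CPM. None of these 3 genes reached 2-fold between the Tcf1-deficient libraries. Bst2 ran differently, with 123 and 85.0 CPM in Tcf1-deficient, 145 and 121 CPM in control and 114 and 88.0 CPM in p45-deficient libraries, so that its highest library was a control.

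**Figure D2:**
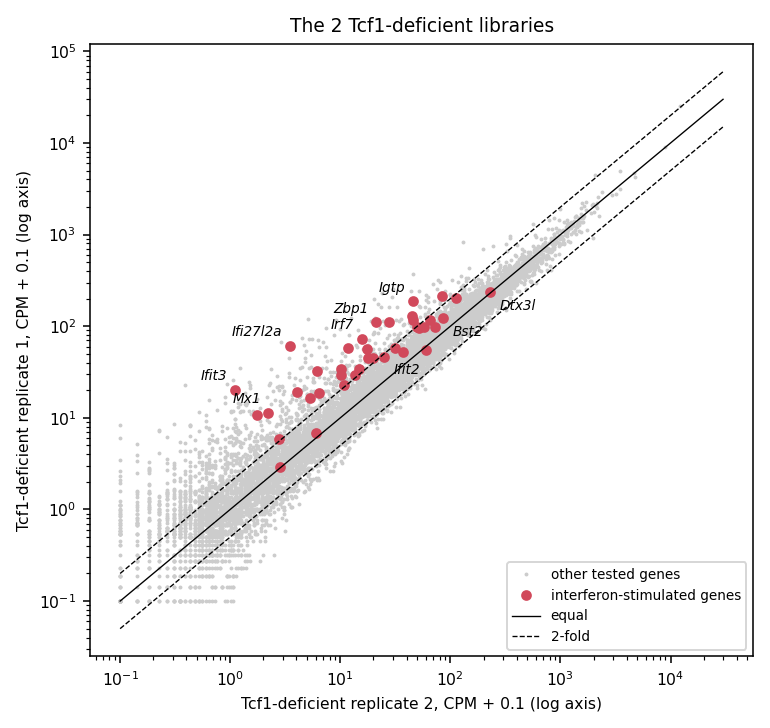
CPM + 0.1 of each tested gene in Tcf1-deficient replicate 2 (horizontal, log axis) and replicate 1 (vertical, log axis), with interferon-stimulated genes in red, equality as a solid line and 2-fold differences as dashed lines. Of the 39 red points, 26 lie at least 2-fold above equality and 0 lie 2-fold below.

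Genes with and without the response element in the window both showed the split. The median ratio of replicate 1 to replicate 2 was 3.39 over the 13 tested members with the core and 1.93 over the 16 with a window that lacks it. This comparison is a description of genes in the same 2 libraries.

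Control libraries also differed on this list, in a smaller way. Control replicate 2 lay above control replicate 1 for 35 of 39 members, with a median ratio of 1.30. In 12 members the ratio was at least 1.5, a size 7.09% of tested genes had in that direction. Over all tested genes control replicate 1 was the higher library for 48.8%, with a median ratio of replicate 1 to replicate 2 of 0.995. In the p45-deficient group replicate 1 was the higher library for 30 members, with a median ratio of 1.14. Over all tested genes it was the higher library for 49.8%, with a median ratio of 0.999.

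Loss of the long isoforms was compared with control to see whether interferon-stimulated genes depend on them. Of 39 tested members 1 rose and none fell by edgeR's quasi-likelihood test at an adjusted p under 0.05, while 8.47% of all tested genes were called higher and 7.55% lower, 16% in all. At an unadjusted p under 0.05, 5 members were higher and none lower, beside 18.3% and 15.5% of tested genes. The split over all genes was 1096 higher and 977 lower with TMM, and 721 higher and 1281 lower with library totals. The gene was Ifit2, at 17.8 and 14.8 CPM in control and 39.3 and 37.1 CPM in p45-deficient libraries, a 2.35-fold difference (1.23 on the log2 scale, SE 0.28, edgeR adjusted p = 0.0312). Its p45-deficient libraries did not overlap the controls. In Tcf1-deficient libraries Ifit2 stood at 46.2 and 24.8 CPM, also above both controls. The call was lost without either control or either p45-deficient library (adjusted p of 0.128 to 0.169 by edgeR, log2 fold change 1.05 to 1.32) and held without either Tcf1-deficient library.

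Other members lay higher in p45-deficient cells without passing that test. Usp18, the protease that removes ISG15 and blocks the interferon receptor, stood at 5.95 and 8.97 CPM in control. It had 18.2 and 18.8 CPM in p45-deficient cells, and 33.9 and 14.8 CPM in Tcf1-deficient cells. The p45-deficient difference from control was 1.30 on the log2 scale (SE 0.40), with an edgeR adjusted p = 0.0689. Rtp4, a chaperone of receptor transport, stood at 12.4 and 20.1 CPM in control. It had 36.6 and 33.1 CPM in p45-deficient cells, and 56.4 and 17.5 CPM in Tcf1-deficient cells. The p45-deficient difference from control was 1.10 on the log2 scale (SE 0.56), with an edgeR adjusted p = 0.237. Ifitm3, which blocks virus entry at membranes, stood at 2.32 and 2.94 CPM, 7.90 and 3.45 CPM, and 2.81 and 2.71 CPM (p45-deficient against control 1.11 on the log2 scale, SE 0.45, edgeR adjusted p = 0.133). Both p45-deficient libraries lay above both controls for all 3 of these genes, but for Ifitm3 the p45-deficient libraries themselves differed by more than 2-fold.

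Across the list, both p45-deficient libraries lay above both controls for 20 of 39 members, where 37.9% of tested genes did so, and below both for 2, Stat2 and Bst2 (31.3%). The fitted log2 fold change was above 0 for 35 members, as for 53.5% of tested genes. Its median was 0.31 over the members and 0.05 over all tested genes, with a range from -0.40 (Bst2) to 1.30 (Usp18). With library totals in place of TMM, 31 members lay above 0 and the medians were 0.21 and -0.06. The members' SEs were wide in this fit, with a median of 0.486, against 0.197 over all tested genes. In this fit all 6 libraries share 1 spread per gene.

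Leaving out either Tcf1-deficient library, which is in neither group of this comparison, raised the count of members called higher. Without Tcf1-deficient replicate 1, 6 members rose in p45-deficient cells and none fell, beside 14% and 14.9% of tested genes. They were Ifit2, Usp18, Gbp3, Rtp4, Isg15 and Isg20, chosen here because they were called in that fit. Isg15, the ubiquitin-like modifier, stood at 10.6 and 13.5 CPM in control and 21.5 and 21.6 CPM in p45-deficient libraries, 1.72-fold higher in that fit (adjusted p = 0.0126 by edgeR). Gbp3, a guanylate-binding protein gene, stood at 11.9 and 11.7 CPM in control and 24.0 and 21.7 CPM in p45-deficient libraries, 1.86-fold higher (adjusted p = 0.00546 by edgeR). Isg20, an RNA exonuclease gene, stood at 10.5 and 10.9 CPM in control and 23.1 and 14.7 CPM in p45-deficient libraries, 1.71-fold higher (adjusted p = 0.0382 by edgeR). Without Tcf1-deficient replicate 2 the count was 8 higher (16.4% of tested genes) and none lower, the additional genes being Parp9 and Eif2ak2. Without either control or either p45-deficient library it was 0, beside 3.31%, 3.94%, 1.9% and 2.84% of tested genes called in either direction without control replicate 1, control replicate 2, p45-deficient replicate 1 and p45-deficient replicate 2. DESeq2 on all 6 libraries called 2 members higher, Ifit2 and Usp18, and none lower, beside 10.5% and 12.2% of genes it tested, 22.7% in all.

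**Figure D3:**
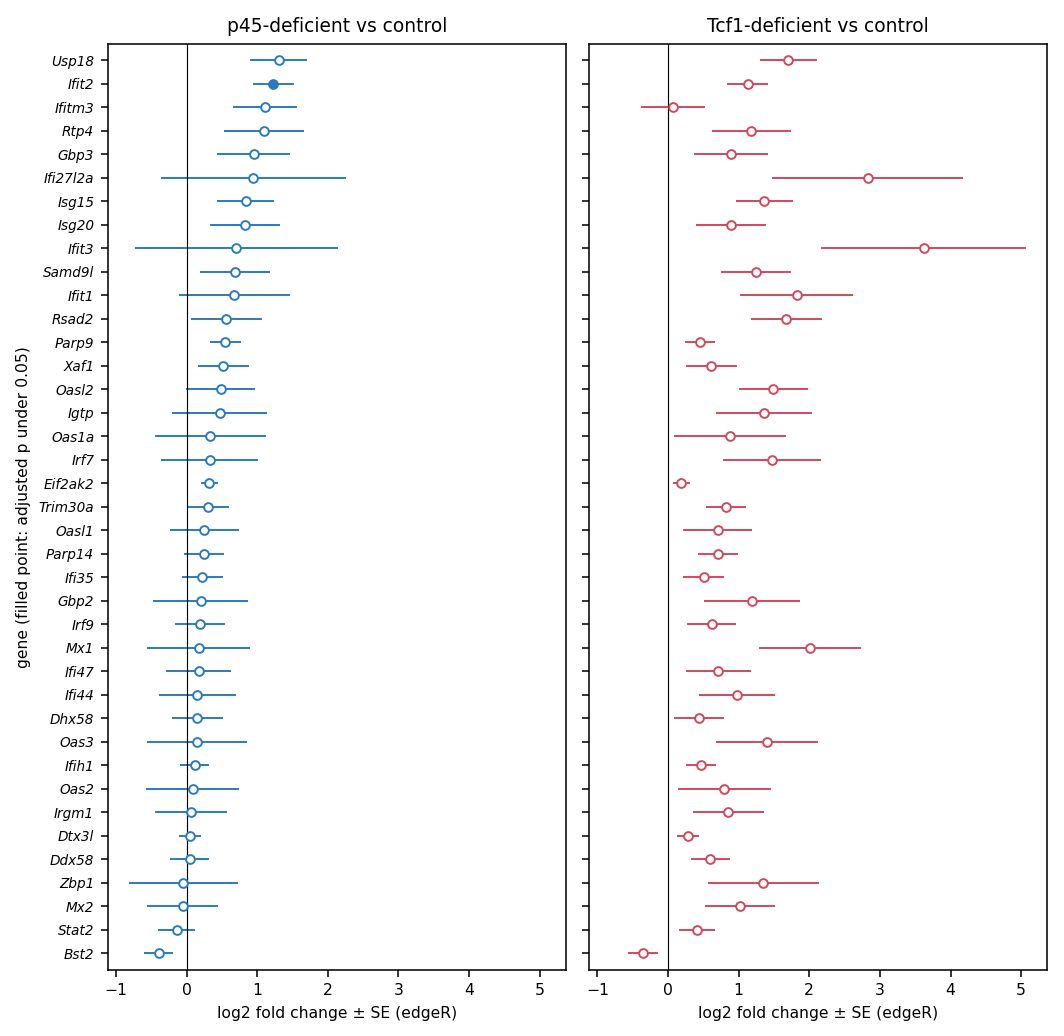
Log2 fold change with its SE (horizontal axes) of the 39 tested interferon-stimulated genes (vertical axis, sorted by the left panel) for p45-deficient and Tcf1-deficient cells against control, by edgeR on all 6 libraries. The filled point, Ifit2 in the left panel, is the 1 gene with an adjusted p under 0.05, and the Tcf1-deficient values reach 3.62 for Ifit3 with wide SEs.

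The Tcf1-deficient libraries were compared with control in the same way. No library came from mice with Lck-cre or the floxed alleles alone, so their effects cannot be told apart from loss of Tcf1. The same limit holds where the Tcf1-deficient group is compared with the p45-deficient group. On all 6 libraries 0 of 39 members were called by edgeR, and 0% of tested genes were called in either direction. At an unadjusted p under 0.05, 8 members were higher and none lower, beside 4.3% and 3.61% of tested genes. The lowest adjusted p of a member was 0.422, for Usp18. DESeq2 called 3 members higher, Ifit2, Isg15 and Usp18, with adjusted p of 0.0247, 0.0442 and 0.00383, and none lower, beside 0.641% and 0.521% of genes it tested, 1.16% in all. The fitted log2 fold change was above 0 for 38 of 39 members (51.2% of tested genes), with a median of 0.89, against 0.01 over all tested genes. Its size rested on replicate 1: the median over members was 0.04 without that library.

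The largest fitted changes belonged to genes with a single high library. The Ifit3 difference was 3.62 on the log2 scale (SE 1.46), with an edgeR adjusted p = 0.626, and became 0.23 without Tcf1-deficient replicate 1. The values were 2.83 and -0.42 for Ifi27l2a, 2.01 and 0.36 for Mx1, and 1.82 and 0.17 for Ifit1, each first with and then without that library. Both Tcf1-deficient libraries lay above both controls for 14 members, as for 16.4% of tested genes, and below both for none (18%). These 14 were Rsad2, Parp14, Dtx3l, Mx1, Mx2, Eif2ak2, Ifit2, Ifih1, Ifi44, Isg15, Oasl2, Samd9l, Usp18 and Trim30a. For Isg15 the Tcf1-deficient libraries stood at 44.4 and 17.8 CPM. Rsad2, which encodes the antiviral enzyme viperin, stood at 3.14 and 4.58 CPM in control and 18.6 and 6.24 CPM in Tcf1-deficient libraries.

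With 1 Tcf1-deficient library left out, the other is assumed to vary like the other groups. Without replicate 2, 28 members were called higher than control and none lower, beside 4.93% and 1.66% of tested genes. In that fit Irf7 lay 4.56-fold higher (adjusted p = 0.000373 by edgeR), Oas3 4.36-fold higher (adjusted p = 0.00112) and Igtp 4.08-fold higher (adjusted p = 0.00359). Without replicate 1, no member was called in either direction, beside 0.0972% of tested genes higher and 0.0224% lower. The 11 tested members that were not called without replicate 2 included Bst2, Ifitm3 and Eif2ak2.

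**Figure D4:**
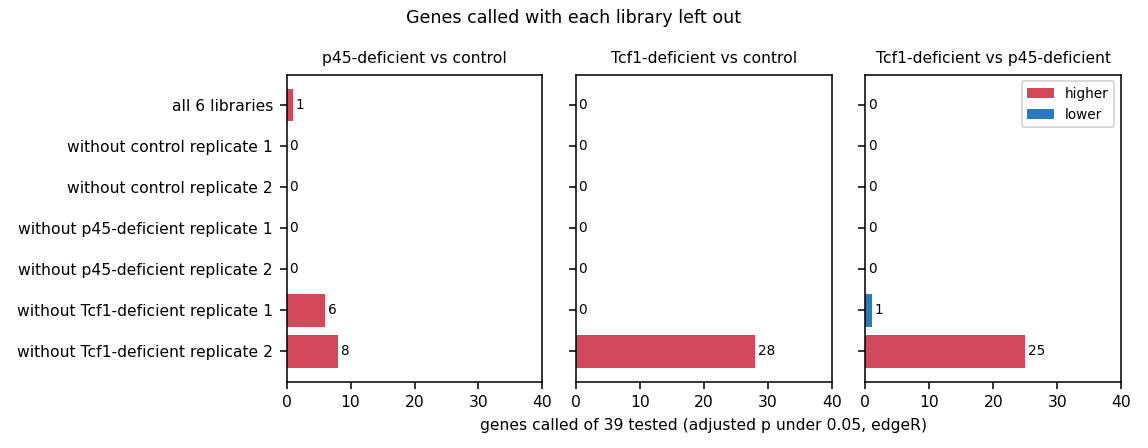
Number of the 39 tested interferon-stimulated genes with an adjusted p under 0.05 by edgeR (horizontal axes) in each comparison, with all 6 libraries and with each library left out (vertical axis). Counts reach 28 and 25 in the comparisons of Tcf1-deficient cells without Tcf1-deficient replicate 2, and 0 or 1 with all libraries.

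The 2 deficient groups were compared to ask whether the conditional Tcf1 deletion differs from loss of the long isoforms. No member was called in either direction by edgeR on all 6 libraries, beside 5.05% of tested genes higher and 5.36% lower in Tcf1-deficient cells, 10.4% in all. The split over all genes was 654 higher and 694 lower with TMM, and 744 higher and 483 lower with library totals. At an unadjusted p under 0.05, 1 member, Mx1, was higher (14.3% of tested genes) and none lower (16.8%). DESeq2 called Mx1 higher (log2 fold change 1.87, adjusted p = 0.0487) and no member lower, beside 10.3% and 8.75% of genes it tested, 19% in all. Both Tcf1-deficient libraries lay above both p45-deficient libraries for 7 members (27.7% of tested genes) and below both for 2, Eif2ak2 and Ifitm3 (33.3%). The fitted log2 fold change was above 0 for 34 members (49% of tested genes), with a median of 0.54. Among the largest fitted differences, Mx1 was at 1.84, Ifit3 at 2.91, Ifi27l2a at 1.89 and Zbp1 at 1.39. Without Tcf1-deficient replicate 1 the same values were 0.24, -0.42, -1.30 and -0.20. In that fit 1 member was called, Gbp3, which was lower in Tcf1-deficient than in p45-deficient cells (-1.14 on the log2 scale, SE 0.21, edgeR adjusted p = 0.0132), beside 3.99% of tested genes called lower, and none was called higher (6.21% of tested genes). Without replicate 2, 25 members were called higher and none lower (12.1% and 13.2% of tested genes). This comparison and the one with control share the Tcf1-deficient libraries.

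The other genes of the pathway were read from lists of interferons, receptors, sensors, regulators and further induced genes. Of 21 interferon genes only Ifng had enough reads to be tested. Ifng reads numbered 6 and 121 in the control pair, 65 and 15 in the p45-deficient pair and 254 and 167 in the Tcf1-deficient pair. Ifnb1 and the Ifna genes had no read in any library, apart from 1 read of Ifnab in control replicate 2, which at this depth allows a level of up to 0.110 to 0.145 CPM. Of 9 tested receptor and JAK-STAT genes none was called in any comparison. Ifnar1 was even across libraries, at 117 to 139 CPM, and Ifnar2 at 68.1 to 82.1 CPM. Irf1, which interferon-gamma induces, stood at 119 and 225 CPM in control, 141 and 136 CPM in p45-deficient libraries, and 272 and 198 CPM in Tcf1-deficient libraries.

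A list of 10 genes outside the 40 members held interferon regulatory factors and the IRF2-binding protein family. Of these 10, 1 fell in p45-deficient cells (7.55% of tested genes) and 2 were higher in Tcf1-deficient than in p45-deficient cells (5.05%). The called genes were Irf2bp2 and Irf2bpl, both of the IRF2-binding family, and no interferon regulatory factor of this list was called. Irf2bp2, a corepressor that binds IRF2, stood at 228 and 204 CPM in control, 138 and 140 CPM in p45-deficient and 262 and 191 CPM in Tcf1-deficient libraries. It fell by 0.64 on the log2 scale in p45-deficient cells (SE 0.16, adjusted p = 0.0408 by edgeR). Irf2bpl, its relative, was higher by a log2 fold change of 1.30 in Tcf1-deficient than in p45-deficient cells. Of 17 tested sensor and adaptor genes, 1 rose and 2 fell in p45-deficient cells, counts near the shares of all tested genes (8.47% and 7.55%). Ifi204, a DNA-binding gene of the Ifi200 family, stood at 0.677 and 0.611 CPM in control, 8.05 and 9.86 CPM in p45-deficient and 0.484 and 0.499 CPM in Tcf1-deficient libraries. Aim2, a sensor of cytosolic DNA, stood at 21.8 and 25.4 CPM, 7.20 and 4.98 CPM, and 24.7 and 23.8 CPM in the same order. Unc93b1, which escorts Toll-like receptors to endosomes, stood at 71.7 and 62.3 CPM in control and 35.7 and 28.4 CPM in p45-deficient libraries. Both libraries of each group lay together for Ifi204 and Aim2, and these were called in each of the 6 fits with a library left out (adjusted p of at most 0.0334 by edgeR against control). The calls of Irf2bp2, Irf2bpl and Unc93b1 were lost without either control or either p45-deficient library (adjusted p of up to 0.239, 0.221 and 0.145 by edgeR), while the log2 fold changes over the 6 fits ran from -0.77 to -0.61, from 0.84 to 1.67 and from -1.23 to -0.90.

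Of 17 regulators that restrain the pathway, Rnaseh2b, part of an enzyme that clears RNA paired with DNA, was the 1 that rose in p45-deficient cells, and none fell, beside 8.47% and 7.55% of tested genes. It stood at 50.7 and 52.7 CPM in control and 87.2 and 94.5 CPM in p45-deficient libraries, and its call was lost without either control or either p45-deficient library (adjusted p of up to 0.156 by edgeR, log2 fold change 0.73 to 0.88 over the 6 fits). Of 77 tested further induced genes, 5 rose and 6 fell in p45-deficient cells, counts near the shares of all tested genes (8.47% and 7.55%). None was called in Tcf1-deficient cells against control (0% of tested genes), and 8 were higher and 3 lower in Tcf1-deficient than in p45-deficient cells (5.05% and 5.36%). Mnda, of the Ifi200 family, stood at 0.242 and 0.0763 CPM in control and 2.21 and 3.30 CPM in p45-deficient libraries. Slfn3 stood at 22.9 and 17.5 CPM in control and 39.95 and 35.5 CPM in p45-deficient libraries, and Herc6, which attaches ISG15 to proteins, at 33.6 and 34.4 CPM and 58.4 and 53.5 CPM. The calls of these 3 genes were lost without either control or either p45-deficient library (adjusted p of up to 0.111, 0.159 and 0.172 by edgeR), with log2 fold changes of 3.42 to 5.03, 0.66 to 1.06 and 0.65 to 0.78 over the 6 fits. Herc3, Gbp6 and Uba7 were higher in Tcf1-deficient than in p45-deficient cells, with log2 fold changes of 0.86, 0.70 and 1.10. Without p45-deficient replicate 1 or 2 these 3 were not called (adjusted p of up to 0.117, 0.160 and 0.167 by edgeR), and Uba7 was not called without control replicate 2 either. Over the 6 fits the log2 fold changes were 0.77 to 1.00, 0.66 to 0.77 and 0.81 to 1.37.

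The split between the Tcf1-deficient libraries was wider in some of these lists than in others. Of the 77 further induced genes, 64 had their highest level in Tcf1-deficient replicate 1 (23.3% of tested genes), and 35 lay at least 2-fold above replicate 2 (9.6%), with a median ratio of 1.83. All 10 genes of the list of interferon regulatory factors and IRF2-binding proteins had their highest level there. Receptor and JAK-STAT genes had a median ratio of 1.27, with 7 of 9 highest in replicate 1. Sensors and adaptors had one of 1.05, with 7 of 17 highest there, and negative regulators one of 1.15, with 8 of 17.

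Summed over 8 genes, markers of mature T cells were also highest in Tcf1-deficient replicate 1. The sum stood at 1283 CPM there and at 805 CPM in replicate 2. It was 414 and 580 CPM in control and 613 and 607 CPM in p45-deficient libraries. In replicate 2 the sum thus lay above all control and p45-deficient libraries, while Ccr7 and S1pr1 lay within their range. In replicate 1, 7 of the 8 had their highest level, with none at 0 in any library. Ccr7, a homing receptor of mature T cells, stood at 123 and 12.4 CPM in the Tcf1-deficient libraries and at 8.94 to 20.9 CPM in the other 4. S1pr1, needed to leave the thymus, stood at 94.7 and 7.28 CPM, against 3.48 to 11.9 CPM. Cd4, by which the sort excluded cells, stood at 372 and 46.1 CPM, against 63.1 to 86.5 CPM, and Cd44 at 41.0 and 4.70 CPM, against 4.74 to 7.94 CPM. The other 2 genes of the gate were also higher in replicate 1 than in replicate 2, but replicate 1 lay within the range of the other 4 libraries. Cd8a stood at 56.0 and 16.1 CPM, against 37.7 to 110.3 CPM, and Cd8b1 at 47.5 and 11.0 CPM, against 22.9 to 89.7 CPM. The 15 DN3 markers summed to 10087 CPM in replicate 1 and to between 13127 and 15025 CPM in the other 5 libraries. That sum includes Tcf7, the gene deleted in the Tcf1-deficient group, which stood at 979 CPM in its replicate 1 and 976 CPM in its replicate 2. The part of these cells in the result was not tested, and in bulk RNA a change in the share of a cell type cannot be told apart from a change in RNA per cell.

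Summed markers of the other cell types did not have their high level in replicate 1 alone, apart from natural killer and innate lymphoid genes, which summed to 380 CPM there and to between 257 and 295 CPM elsewhere. The plasmacytoid dendritic cell genes Siglech and Klk1, from a cell type that makes much type I interferon, stood at 0 to 0.193 CPM and 0 to 0.440 CPM. The 11 genes of that list summed to 487 CPM in Tcf1-deficient replicate 1 and to between 540 and 694 CPM elsewhere. Siglech and Klk1 gave almost none of these sums, which therefore do not measure plasmacytoid cells. The natural killer and innate lymphoid list likewise holds Il7r and Gata3, genes not limited to those cells. Dendritic cell and antigen-presentation genes summed to 129 and 19.2 CPM in the Tcf1-deficient libraries, 129 and 52.8 CPM in control and 28.0 and 26.7 CPM in p45-deficient libraries. The plasmacytoid and the dendritic cell lists hold 11 genes each, of which 8 and 9 were tested. Tcf1-deficient replicate 1 was the highest library for 4 plasmacytoid genes and for 6 dendritic cell and antigen-presentation genes. Its share over all tested genes was 23.3%. Macrophage, monocyte and granulocyte genes summed to 10.8 to 20.7 CPM in the 6 libraries and B cell genes to 14.5 to 37.2 CPM. Of these, 3 and 0 genes had their highest level in Tcf1-deficient replicate 1. Genes of the handling list, immediate-early and heat-shock genes, summed to 3315 and 4087 CPM in the Tcf1-deficient, 999 and 4181 CPM in the control and 723 and 693 CPM in the p45-deficient libraries. The ribosomal RNA gene Rn45s took 2.52% of reads in Tcf1-deficient replicate 1 and 0.482% to 1.51% in the others. The part of these values in the result was not tested.

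**Figure D5:**
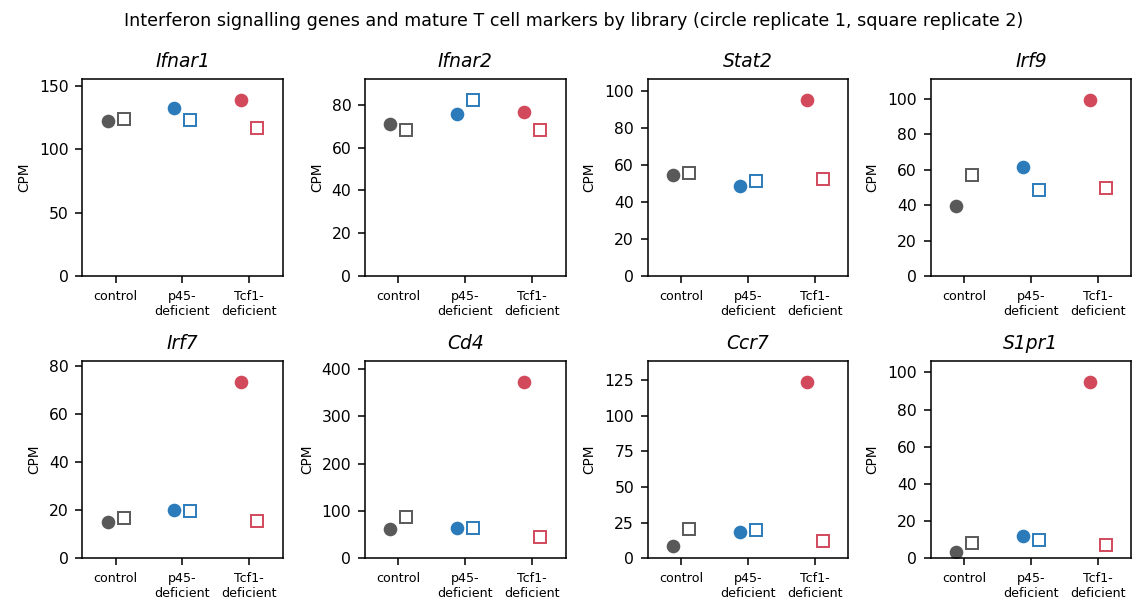
CPM (vertical axes, from 0) of 5 interferon signalling genes and 3 T cell markers in each library, by group (horizontal axes), with circles for replicate 1 and squares for replicate 2. Ifnar1 is even at 117 to 139 CPM and Ifnar2 at 68.1 to 82.1 CPM, while Irf7, Cd4, Ccr7 and S1pr1 each have their highest level in Tcf1-deficient replicate 1.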

How the data were processed

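For each library the authors deposited raw counts, whole numbers of reads for each gene symbol, with no normalisation. Per the submitters' processing notes, TopHat2, featureCounts 1.5.0-p3, DESeq2 3.4 and build mm9 were used; the sources used here give no annotation or strand setting, so overlapping or near-identical genes may not be separated. The test was edgeR 4.0.16 under R 4.3.3 (filterByExpr, TMM, 1 mean per group over 6 libraries, robust quasi-likelihood F test, two-sided, Benjamini-Hochberg over 12939 genes, threshold 0.05, 3 residual degrees of freedom). SEs come from the F statistic. The procedure was tested on simulated data with all 6 libraries and each gene drawn independently. That test does not cover a split like the one between the Tcf1-deficient libraries, nor fits with a library left out. Replicates differed by more than counting noise (chi-square per degree of freedom 10.3 to 78.2) and were each used. Alternatives were DESeq2 1.42.0, other scalings and filters, fits of 2 groups, a replicate block and each library left out. The members and lists were chosen with earlier results of these data known. By rule the text names called members, the 6 most abundant, the 4 with the largest change per comparison, the 4 with the widest replicate difference, Irf7, Irf9 and Stat2, and up to 3 called genes per pathway list and comparison with Irf1, Ifnar1 and Ifnar2; 1 gene is not reported here. Other genes were named after their values were seen. Floors and 0 counts cover counting error only.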

Additional observations from a re-analysis of the deposited data

How the results depend on the processing

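Counts of called genes depended on the libraries in the fit. Members called numbered 0 to 8 for p45-deficient against control, 0 to 28 for Tcf1-deficient against control and 0 to 25 for Tcf1-deficient against p45-deficient over the fits with 1 library left out, and 1, 0 and 0 with all libraries. All genes called numbered 258 to 3923 (2073 with all libraries), 0 to 894 (0) and 105 to 3437 (1348). DESeq2 gave 2, 3 and 1 members, and, for Tcf1-deficient cells, 145 genes against control and 2440 against p45-deficient cells. Fits of only the 2 groups compared gave 6 members and 3907 genes for p45-deficient against control and 488 genes for Tcf1-deficient against p45-deficient, and no filter gave 33 genes for Tcf1-deficient against control. The other scalings and the stricter filter moved no total of called genes by over 1.5 times, but library totals took the genes called higher in p45-deficient cells from 1096 to 721. Left-out libraries turned the sign of 4 named values, all without Tcf1-deficient replicate 1: Ifi27l2a reached -0.42 against control (2.83 with all libraries, up to 3.74 over these fits) and, against p45-deficient cells, Ifi27l2a reached -1.30 (up to 2.79), Ifit3 -0.42 (up to 3.83) and Zbp1 -0.20 (up to 2.13). The cause was not tested. The labels give the same replicate numbers in each group but tie them to nothing, and deviations of same-numbered libraries correlated at -0.04, -0.05 and -0.04 over all genes and at 0.07, -0.47 and -0.13 over the members. With a replicate block, the counts of members stayed at 1, 0 and 0, and those of all genes were 1613, 0 and 920. Genes under 3 reads in a library, as Oas1g in most, are beyond the depth.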
